A study of Mus musculus with 62 samples.

Results

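The cauda epididymis of Rag2-/- mice was compared with that of specific-pathogen-free (SPF) mice across genes. The members are 7 libraries of the 62 in the series, chosen by their labels: 3 from Rag2-/- cauda and 4 from SPF cauda. The wider study asked what germ-free (GF) rearing does to the male tract, and its Rag2-/- mice served to ask which of those changes also occur when the adaptive lymphocytes are missing. Each library is polyadenylated RNA from the tissue of 1 adult male of 8 to 14 weeks. SPF mice were C57BL/6 from a commercial breeder, whereas the allele, the background strain and the colony of the Rag2-/- mice were not given in the sources used here. Genotype, colony and housing can therefore not be told apart in this comparison. Further libraries served as reference values: 5 cauda libraries of a second set of SPF mice, 5 cauda libraries of GF mice, and caput libraries from 2 Rag2-/- and 4 SPF mice. The library names mark the second SPF set as controls of GF mice that had been recolonized with microbes. Against that set, genotype and set cannot be told apart. Values are TPM, transcript abundances scaled to the same total in each library, changes are differences of log2(TPM + 1), and a gene was called when the limma test gave a Benjamini-Hochberg adjusted p of at most 0.05 over all genes tested and a fold of at least 1.5. Of 23845 genes in the table, 12293 averaged 1 TPM or more in these 7 and were tested.

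RAG2 and RAG1 together form the recombinase that cuts antigen receptor genes in developing lymphocytes, so mice without RAG2 have no mature T or B cells and keep their macrophages, dendritic cells and natural killer cells. The cauda is the distal region of the epididymis, where sperm are stored. Its principal cells secrete proteins that coat the sperm, among them beta-defensins, protease inhibitors of the WFDC family and cysteine-rich secretory proteins, beside basal cells, acid-secreting clear cells and a thick coat of smooth muscle.

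The targeted gene itself gave no check of the genotype, because Rag2 was listed at 0 TPM in all 3 Rag2-/- and all 4 SPF cauda libraries and Rag1 reached at most 0.02 TPM in Rag2-/- cauda and was listed at 0 in SPF cauda. A gene that overlaps Rag2 did separate the genotypes. B230118H07Rik, now called Iftap and coding for a protein associated with intraflagellar transport, lies at chr2:101560779-101629031 in GRCm38.p6, on the strand opposite to Rag2 at chr2:101624712-101632528. It was listed at 0 TPM in all 3 Rag2-/- cauda libraries and at 10.3, 8.18, 7.77 and 7.05 TPM in SPF cauda replicates 1 to 4. The second SPF set held 12.1, 14.6, 11.2, 17.9 and 13.1 TPM, and GF cauda between 5.64 and 6.26 TPM. The difference was called lower in Rag2-/- cauda (-3.21 ± 0.16 standard error on the log2(TPM + 1) scale, limma adjusted p = 0.000266). Against values of 0 that number is set by the added 1 TPM and is no fold. In caput the gene was again listed at 0 in both Rag2-/- libraries, against 4.16 to 6.84 TPM in the 4 SPF libraries (limma adjusted p = 0.00114). Among the 12293 genes tested it was the 1 gene at 0 in every Rag2-/- and above 0 in every SPF cauda library.

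RefSeq gives 2 promoter windows for this gene, and the one that lies within the Rag2 gene is shown. The other, at chr2:101620997-101621296, lies outside Rag2. The window shown covers 250 bases before and 50 after a start site at chr2:101628982-101629281 on the minus strand (RefSeq, GRCm38.p6), inside the intron between the second Rag2 exon, which ends at base 101628199, and the third, which starts at base 101629322 (GENCODE annotation of GRCm38).
B230118H07Rik promoter: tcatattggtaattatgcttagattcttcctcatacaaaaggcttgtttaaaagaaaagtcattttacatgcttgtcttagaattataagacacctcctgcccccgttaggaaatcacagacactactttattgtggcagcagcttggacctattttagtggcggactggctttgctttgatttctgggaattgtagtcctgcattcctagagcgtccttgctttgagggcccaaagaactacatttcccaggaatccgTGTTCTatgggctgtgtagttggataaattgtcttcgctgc
The capitals mark a match to AGAACA, the core letters of an androgen receptor binding motif, read on the opposite strand as TGTTCT. Letters AGAACA on either strand occur in 5139 of 27025 RefSeq promoter windows of this length (19.0%), and the TATA box letters TATAAA in 3827 (14.2%). A match in such a window is a description and not a binding site.

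Across all genes, 6 were called higher and 10 lower in Rag2-/- cauda, 0.0488% and 0.0813% of those tested and 0.130% together. The 6 were Erdr1, Phospho1, 1700112E06Rik, Hgfac, Cryba4 and Crybb1. The 10 were Defb22, Defb23, Defb39, Wfdc13, Npy, Car4, BC048679, 2300002M23Rik, Dynlt1b and B230118H07Rik. At an unadjusted p under 0.05 there were 415 genes higher and 879 lower. Groups did not overlap for 1624 genes (13.2%), with 461 higher (3.75%) and 1163 lower (9.46%). The median change over all genes tested was -0.06. When the libraries were rescaled by the median of their ratios, 16 genes were called higher and 13 lower, so the split between the directions depends on the scaling.

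**Figure D1:**
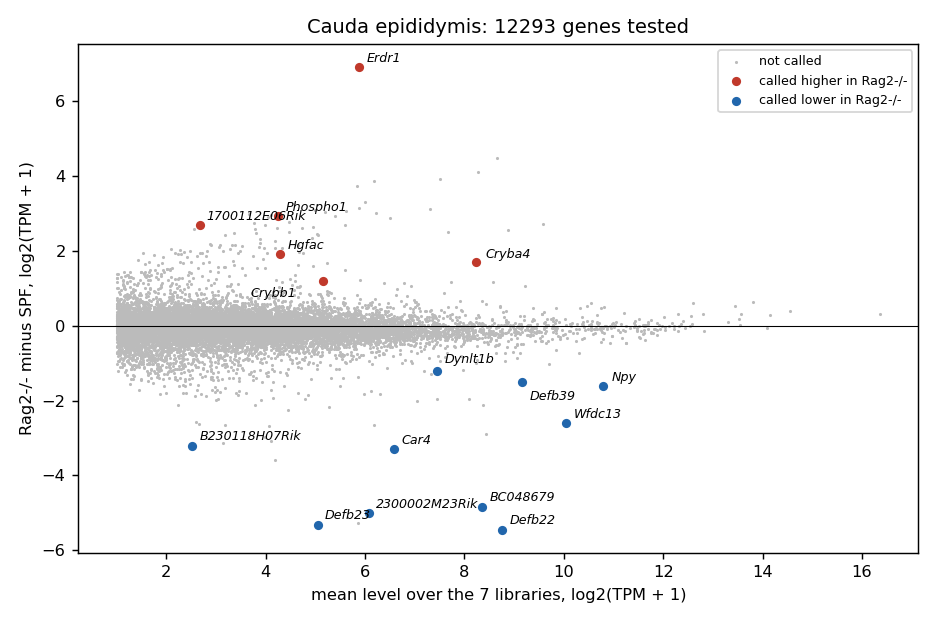
Change of each of the 12293 genes tested (vertical axis, Rag2-/- minus SPF cauda on the log2(TPM + 1) scale) against its mean level over the 7 libraries (horizontal axis, log2(TPM + 1)). Grey points were not called, red points are the 6 genes called higher and blue points the 10 called lower in Rag2-/- cauda.

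Libraries also differed within and between the genotypes in their general makeup. Rag2-/- replicate 2 held 13105 genes above 0 TPM, against 16630 and 17110 in the other 2 Rag2-/- libraries and 15522 to 17331 in SPF cauda, and 538 of the tested genes were at 0 in it. SPF replicate 4 followed with 144 tested genes at 0. The tissue showed the markers of cauda: 5 principal cell genes summed to 39167 to 41486 TPM in Rag2-/- and 23238 to 37819 TPM in SPF cauda, and 4 caput genes to at most 36.4 TPM in Rag2-/- and 82.4 TPM in SPF cauda. Spermatid and sperm transcripts, which come from the stored sperm, averaged 4.75, 5.46 and 5.29 log2(TPM + 1) in Rag2-/- replicates 1 to 3 and 2.52, 4.42, 3.55 and 1.21 in SPF replicates 1 to 4. With that level as a covariate, 3 genes were called: Erdr1 higher, and B230118H07Rik and 2300002M23Rik lower. The level did not overlap between the genotypes, so this fit cannot separate sperm content from genotype. The loss of the other calls is therefore not assigned to sperm content.

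Single libraries decided most calls. With all 7 libraries 16 genes were called. There were 4 calls without Rag2-/- replicate 1, 6 without replicate 2 and 2 without replicate 3. Without SPF replicate 1 there were 5 calls, without replicate 2 there were 111, without replicate 3 there were 3 and without replicate 4 there were 24. Erdr1 and B230118H07Rik were called in every 1 of these 7 fits. The gene 1700112E06Rik was lost without Rag2-/- replicate 3 and without SPF replicate 3, and Defb23 without Rag2-/- replicate 3. The second SPF set was a further reference. Against its 5 libraries 130 genes were called higher (1.04%) and 1187 lower (9.45%) in Rag2-/- cauda, and 7 of the 16 genes were called again in the same direction: Erdr1, 1700112E06Rik, Cryba4, Phospho1, Hgfac, Dynlt1b and B230118H07Rik. The second set tested against the first gave 5 genes higher (0.0397%) and 6 lower (0.0477%).

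**Figure D2:**
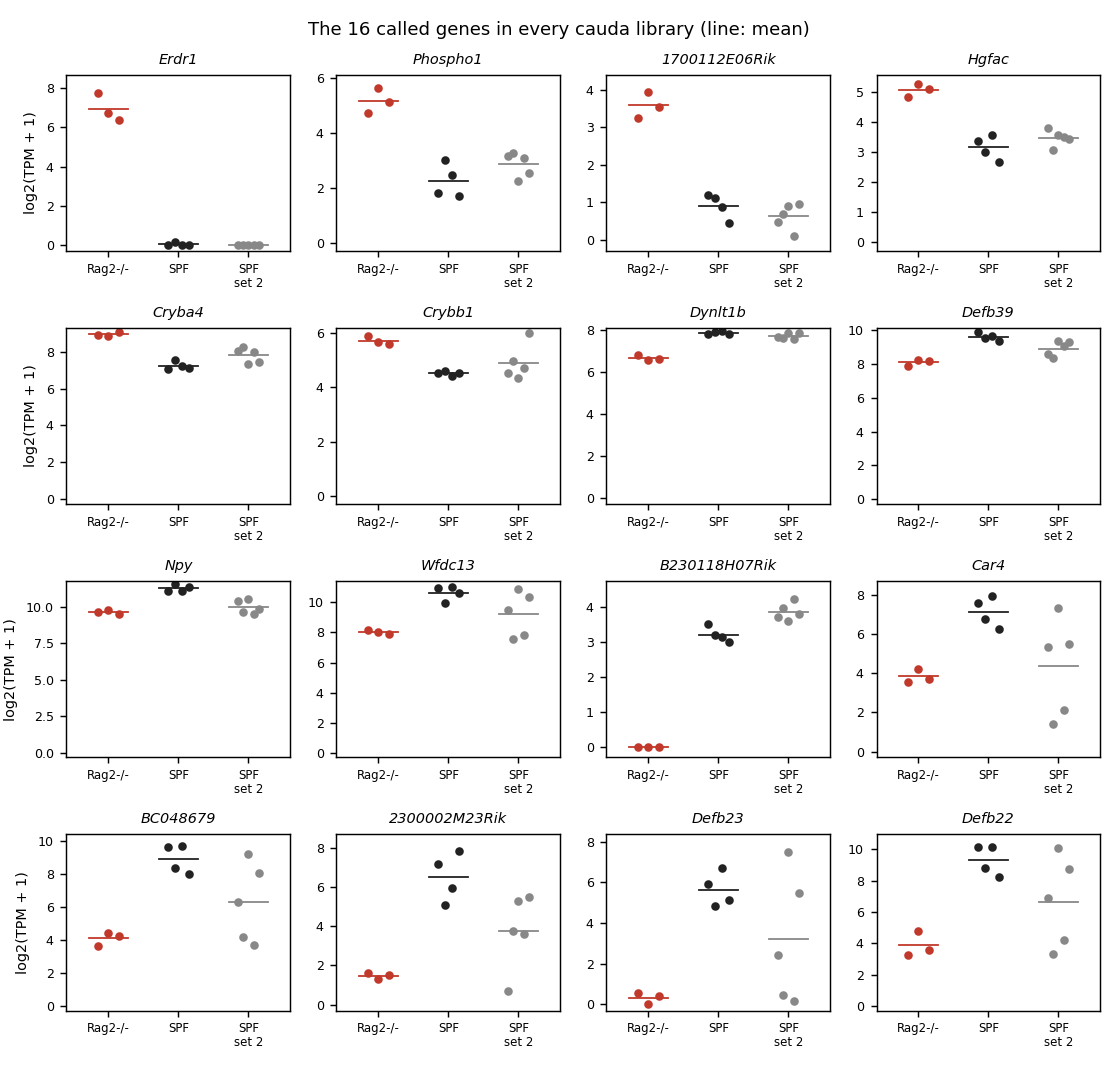
The 16 called genes in each cauda library, as log2(TPM + 1) on the vertical axis of each panel, with Rag2-/- in red, SPF in black and the second SPF set in grey; each point is 1 library and each line a group mean. Every Rag2-/- point lies outside the range of the first SPF set. For Defb22, Defb23, Car4, BC048679, Wfdc13, 2300002M23Rik and Npy the second set spreads over the Rag2-/- values. For Crybb1, 1 library of the second set lies above them.

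Erdr1, a gene of the pseudoautosomal region first described as a regulator of erythroid differentiation, showed the largest change. It was at 217, 105 and 82.5 TPM in Rag2-/- replicates 1 to 3, while in SPF cauda it was at 0.12 TPM in replicate 2 and listed at 0 in the other 3. All 5 libraries of the second SPF set were listed at 0. The change was 6.92 ± 0.31 (standard error) on the log2(TPM + 1) scale (limma adjusted p = 0.000184), a size that rests on the added 1 TPM. GF cauda held 74.6 to 170 TPM, so the transcript was present in every Rag2-/- and GF cauda library and at or near 0 in both SPF sets. RefSeq places Erdr1 at chrX:170010526-170018797 in GRCm38.p6 and lists it as a transcribed pseudogene.

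Entpd4 lay just short of the threshold, and Nnt was examined because it can differ between mouse colonies. Entpd4 encodes a nucleoside diphosphatase of the Golgi and lysosomes. It was at 300.3, 306 and 323 TPM in Rag2-/- cauda, against 147, 148, 146 and 109 TPM in SPF cauda, 107 to 163 TPM in the second set and 255 to 339 TPM in GF cauda. Its groups did not overlap, but its change of 1.17 ± 0.16 missed the threshold (limma adjusted p = 0.0582). Its row in the table adds up a second copy, annotated as Entpd4b at chr14:69555401-69584940. Nnt encodes the mitochondrial transhydrogenase that makes NADPH, and a deletion in it is a known mark of the C57BL/6J substrain. It was at 4.08, 1.89 and 2.59 TPM in Rag2-/- cauda, against 12.1, 9.75, 9.75 and 6.55 TPM in SPF cauda and 7.57 to 13.8 TPM in the second set. GF cauda held 3.94 to 5.45 TPM. The change of -1.46 ± 0.25 was not called against the first set (limma adjusted p = 0.110) and was called against the second (limma adjusted p = 0.0161).

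The gene 1700112E06Rik, also named Lrmda and known from melanocyte differentiation, spans more than any other called gene, at chr14:22019504-23056093. It was at 8.62, 14.5 and 10.8 TPM in Rag2-/- cauda and at 1.31, 1.16, 0.82 and 0.36 TPM in SPF cauda, with no overlap between the groups. The second SPF set held 0.08 to 0.94 TPM and GF cauda 8.39 to 16 TPM. Its change was 2.69 ± 0.24 (limma adjusted p = 0.0122), and without SPF replicate 3 or Rag2-/- replicate 3 the adjusted p was at most 0.0995. The unnamed gene 5031439G07Rik, just outside the threshold (limma adjusted p = 0.0523), had the same order of groups. It was at 27.1, 40.3 and 30.7 TPM in Rag2-/- cauda, 12.6 to 13.7 TPM in SPF cauda, 9.34 to 15.4 TPM in the second set and 29.5 to 43.0 TPM in GF cauda.

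Cryba4 and Crybb1 encode crystallins of the beta family, structural proteins best known from the eye lens, and are neighbours on chromosome 5. Cryba4 was at 492, 458 and 540 TPM in Rag2-/- cauda, against 135, 186, 152 and 137 TPM in SPF cauda. Its change was 1.71 ± 0.17 (limma adjusted p = 0.0141), and all 3 Rag2-/- libraries also lay above the second SPF set at 159 to 303 TPM. GF cauda held 115 to 253 TPM. Crybb1 was at 57.4, 50.1 and 46.8 TPM in Rag2-/- cauda, against 21.8, 23.3, 20.04 and 22.1 TPM in SPF cauda, a change of 1.20 ± 0.15 (limma adjusted p = 0.0312). In the second set 1 library reached 62.5 TPM, above all Rag2-/- libraries, and the other 4 held 19.1 to 30.0 TPM. Without Rag2-/- replicate 3 neither gene was called (limma adjusted p = 0.149 for Cryba4 and 0.212 for Crybb1).

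Their RefSeq promoter windows (GRCm38.p6) are shown because both neighbours were called higher and start on opposite strands. They lie at chr5:112252469-112252768 on the minus strand for Cryba4 and at chr5:112255570-112255869 on the plus strand for Crybb1, and capitals mark TATAAA.
Cryba4 promoter: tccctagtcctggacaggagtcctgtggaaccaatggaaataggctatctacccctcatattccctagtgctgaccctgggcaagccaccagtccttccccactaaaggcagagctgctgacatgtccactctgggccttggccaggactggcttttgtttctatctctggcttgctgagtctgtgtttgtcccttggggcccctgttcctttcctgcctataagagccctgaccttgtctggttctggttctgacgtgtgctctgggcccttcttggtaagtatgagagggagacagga
Crybb1 promoter: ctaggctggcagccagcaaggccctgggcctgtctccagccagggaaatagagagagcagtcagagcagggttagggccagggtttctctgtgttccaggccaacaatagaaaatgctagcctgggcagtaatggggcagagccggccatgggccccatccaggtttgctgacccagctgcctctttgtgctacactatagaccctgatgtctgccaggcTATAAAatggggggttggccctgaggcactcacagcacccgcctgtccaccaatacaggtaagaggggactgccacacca
The letters TATAAA stood in the Crybb1 window and in neither orientation in that of Cryba4, and AGAACA in neither window. The gene bodies overlap, at chr5:112246492-112263625 and chr5:112254563-112269585, and the library kit keeps the strand, but whether counting used it is not given in the sources used here.

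Phospho1 and Hgfac were the other genes called higher. Phospho1 encodes a phosphatase of phosphocholine and phosphoethanolamine that is known from bone mineralisation. It was at 25.8, 49.7 and 34.6 TPM in Rag2-/- cauda, against 2.57, 7.12, 4.61 and 2.25 TPM in SPF cauda and 3.76 to 8.75 TPM in the second set. Its change was 2.93 ± 0.36 (limma adjusted p = 0.0312), and GF cauda stood between 17.8 and 35.4 TPM. Hgfac encodes the protease that activates hepatocyte growth factor. It was at 27.7, 37.5 and 32.9 TPM in Rag2-/- cauda, against 9.24, 7.08, 10.9 and 5.36 TPM in SPF cauda and 7.46 to 13.1 TPM in the second set. The change was 1.91 ± 0.24 (limma adjusted p = 0.0340), and GF cauda held 3.55 to 12.2 TPM. Without Rag2-/- replicate 3 the adjusted p was 0.212 for Phospho1 and 0.216 for Hgfac.

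Dynlt1b, a light chain of the dynein motor that carries cargo along microtubules, was lower. It was at 111, 92.2 and 95.7 TPM in Rag2-/- cauda, against 220, 237, 241 and 222 TPM in SPF cauda, 184 to 228 TPM in the second set and 218 to 314 TPM in GF cauda. The change was -1.20 ± 0.14 (limma adjusted p = 0.0312, and 0.216 without Rag2-/- replicate 3). Dynlt1b has near-identical copies on chromosome 17, and how reads were divided among them is uncertain. The copy Dynlt1f was at 104, 66.9 and 101 TPM in Rag2-/- cauda and 104, 119, 139 and 83.2 TPM in SPF cauda, with overlapping groups.

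Among the other genes called lower, most overlapped with the second SPF set. Defb22, a beta-defensin of the sperm glycocalyx, was at 8.45, 26.2 and 11 TPM in Rag2-/- cauda, against 1131, 442, 1127 and 293 TPM in SPF cauda. Its change was -5.45 ± 0.57 (limma adjusted p = 0.0160). The second set ran at 118, 8.98, 1103, 17.5 and 424 TPM in replicates 1 to 5, so its replicates 2 and 4 were as low as Rag2-/- cauda. Defb23, the neighbouring defensin gene, was at 0.48, 0 and 0.32 TPM in Rag2-/- cauda, against 59.9, 27.7, 102 and 33.9 TPM in SPF cauda (change -5.32 ± 0.42, limma adjusted p = 0.00608). In the second set it was at 4.43, 0.39, 177, 0.14 and 43.8 TPM, low in the same replicates. Against that set neither gene was called (limma adjusted p = 0.193 for Defb22 and 0.211 for Defb23).

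The promoter windows of these neighbours, read from the minus strand at chr2:152490089-152490388 for Defb22 and chr2:152464571-152464870 for Defb23, are shown because both genes were low in the same libraries.
Defb22 promoter: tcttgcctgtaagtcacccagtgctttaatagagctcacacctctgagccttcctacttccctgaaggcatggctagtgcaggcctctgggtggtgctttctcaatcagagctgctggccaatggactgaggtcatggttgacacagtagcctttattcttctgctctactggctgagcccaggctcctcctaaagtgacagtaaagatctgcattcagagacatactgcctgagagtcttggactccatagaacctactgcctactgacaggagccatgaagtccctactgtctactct
Defb23 promoter: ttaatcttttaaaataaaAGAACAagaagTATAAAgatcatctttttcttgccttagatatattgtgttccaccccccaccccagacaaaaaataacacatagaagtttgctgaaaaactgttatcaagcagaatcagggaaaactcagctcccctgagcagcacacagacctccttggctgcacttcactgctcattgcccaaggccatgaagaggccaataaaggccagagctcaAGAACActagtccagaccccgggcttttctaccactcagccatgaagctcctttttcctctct
Capitals mark AGAACA and TATAAA. The Defb23 window held 2 matches to AGAACA and 1 to TATAAA, and the Defb22 window held none.

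Wfdc13, Car4, BC048679 and 2300002M23Rik were likewise lower than in the first SPF set and overlapped with the second. Wfdc13, of the protease inhibitor family named above, was at 288, 258 and 242 TPM in Rag2-/- cauda, against 1958, 1011, 2070 and 1601 TPM in SPF cauda and 706, 191, 1940, 229 and 1336 TPM in the second set. Its change was -2.61 ± 0.26 (limma adjusted p = 0.0141). Car4, a carbonic anhydrase anchored on the cell surface, was at 10.9, 17.9 and 12.3 TPM in Rag2-/- cauda and 193, 109, 247 and 75.8 TPM in SPF cauda. That change was -3.30 ± 0.40 (limma adjusted p = 0.0312), and the second set held 1.68 and 3.43 TPM in replicates 2 and 4 and 40.4 to 161 TPM in the other 3. The uncharacterised gene BC048679 was at 11.4, 20.8 and 18.1 TPM in Rag2-/- cauda and 805, 336, 836 and 262 TPM in SPF cauda (change -4.84 ± 0.45, limma adjusted p = 0.0122), and the second set held 76.7, 17.1, 585, 12.2 and 268 TPM. For 2300002M23Rik the values were 2.10, 1.44 and 1.89 TPM in Rag2-/- cauda and 140.3, 33.0, 60.8 and 228 TPM in SPF cauda (change -5.02 ± 0.59, limma adjusted p = 0.0312), with 0.63 to 44.2 TPM in the second set. Of these 4 genes none was called against the second set (limma adjusted p = 0.117 to 0.794).

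Defb39 and Npy were lower by less. Defb39, another beta-defensin, was at 239.8, 298 and 287 TPM in Rag2-/- cauda, against 964, 745, 806 and 648 TPM in SPF cauda. The change was -1.51 ± 0.18 (limma adjusted p = 0.0312). The second set lay above all Rag2-/- libraries too, at 323 to 650.5 TPM, but missed the threshold (change -0.82, limma adjusted p = 0.0515), and GF cauda held 163 to 346 TPM. Npy, the gene of neuropeptide Y, was at 809, 866 and 738 TPM in Rag2-/- cauda, against 2163, 2964, 2212 and 2597 TPM in SPF cauda (change -1.62 ± 0.17, limma adjusted p = 0.0160). Npy in the second set ran from 732 to 1466 TPM and overlapped the Rag2-/- range, and in GF cauda from 1921 to 3086 TPM. Without Rag2-/- replicate 3 the adjusted p was 0.212 for Defb39 and 0.184 for Npy.

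Below the threshold, Amy1 and Sntg1 completed the genes with the smallest p among those higher in Rag2-/- cauda. Amy1, an amylase, was at 12.7, 14.7 and 12.3 TPM in Rag2-/- cauda and 4.33, 5.13, 3.80 and 2.30 TPM in SPF cauda (limma adjusted p = 0.0647), but the second set reached 24.3 TPM. Sntg1, a syntrophin that links membrane proteins to the cytoskeleton, was at 1.47, 2.95 and 1.91 TPM in Rag2-/- cauda and 0.04 to 0.31 TPM in SPF cauda (limma adjusted p = 0.0611). Its second set held 0.44 to 1.77 TPM and overlapped.

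Lymphocyte transcripts were scarce in both genotypes, and fewer cells of a type and less RNA per cell cannot be told apart in such bulk tissue. The T cell receptor subunit Cd3g was at 0.26, 0 and 0 TPM in Rag2-/- cauda, against 0.71, 0.93, 1.07 and 1.42 TPM in SPF cauda. Cd3e was at 0.72, 0 and 0.66 TPM in Rag2-/- cauda, against 1.5, 0.86, 1.09 and 0.76 TPM in SPF cauda. The coreceptor Cd4 was at 0.20, 0 and 0.18 TPM in Rag2-/- cauda, against 0.78, 0.30, 0.69 and 0.95 TPM in SPF cauda. The groups of these genes did not overlap, nor did those of Cd8a, at 0.05 TPM or less in Rag2-/- cauda and 0.09 to 0.31 TPM in SPF cauda. All 4 were below the level at which genes were tested, so no p is given. In the second SPF set Cd3g ran from 0.28 to 1.06 TPM, still above Rag2-/- cauda, while Cd3e ran from 0.31 to 1.43 TPM, Cd4 from 0.06 to 0.48 TPM and Cd8a from 0.03 to 0.28 TPM, and these overlapped it. Of 22 T cell genes in the table, 18 had a lower and 2 a higher mean in Rag2-/- cauda, and 7 did not overlap with SPF cauda, all lower. Only 2 of the 22 reached the level tested. Of the 6461 genes above 0 but below that level, 60.3% had a lower mean and 3.88% lay lower without overlap. These shares leave out genes at 0 in all 7 libraries, which the counts over the 22 include. Summed over these 22 genes, Rag2-/- cauda held 10.5, 10.8 and 11.5 TPM, SPF cauda 13.2 to 16.9 TPM and the second set 9.24 to 13.3 TPM. The most abundant member, Tcf7, reached 6.28 TPM. In Rag2-/- replicate 2 only 4 of the 22 were above 0, so the sum there rests on few genes.

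B cell transcripts were scarcer still. The B cell receptor subunit Cd79b was at 0.22, 0 and 0.66 TPM in Rag2-/- cauda and 0.83, 0.84, 0.74 and 0.93 TPM in SPF cauda, and its partner Cd79a at 0.39, 0 and 0.65 TPM in Rag2-/- cauda and 0.12 to 0.53 TPM in SPF cauda. Ms4a1, a surface protein of B cells, was listed at 0 in all 7 libraries. Of 15 genes of B and plasma cells, 10 had a lower and 4 a higher mean in Rag2-/- cauda, and 3 lay lower without overlap, beside the same 3.88%. Their summed level was 6.89, 8.18 and 6.87 TPM in Rag2-/- cauda, within the 5.94 to 9.61 TPM of SPF cauda and above the 5.16 to 6.39 TPM of the second set. The most abundant member, Derl3, reached 4.98 TPM. In Rag2-/- replicate 2 only 2 of the 15 were above 0, so the sum there rests on 2 genes. Cd79b, at 0.15 to 0.97 TPM in the second set, overlapped with Rag2-/- cauda there. Rag2-/- replicate 2, with the fewest genes above 0, gave all the zeros of Cd3e, Cd4, Cd79a and Cd79b.

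Gene lists are given by their counts and medians beside those of all genes tested, of which 42.7% had a positive change. All 24 tested spermatid and sperm transcripts had a positive change, with a median of 2.46. Of these, 13 lay higher than SPF cauda without overlap, beside 3.75% of all genes tested. However, 0 were called by limma (21 had an unadjusted p under 0.05). Prm2, a protamine that packs sperm DNA, was at 734, 1654 and 1503 TPM in Rag2-/- cauda and 157, 816, 462 and 19.1 TPM in SPF cauda. Smcp, a protein of the sperm mitochondrial capsule, was at 638, 1018 and 834 TPM in Rag2-/- cauda and 41.3, 232, 67.0 and 1.68 TPM in SPF cauda. SPF replicate 4 was lowest for both and for the list, and without it the median was 1.67. Against the second SPF set the median was 0.60, 21 of 24 were positive and 8 were called higher, beside 1.04% of all genes in that comparison, among them Smcp (limma adjusted p = 0.0200). How far sperm content moves the other genes was not tested, because the covariate cannot separate it from genotype.

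**Figure D3:**
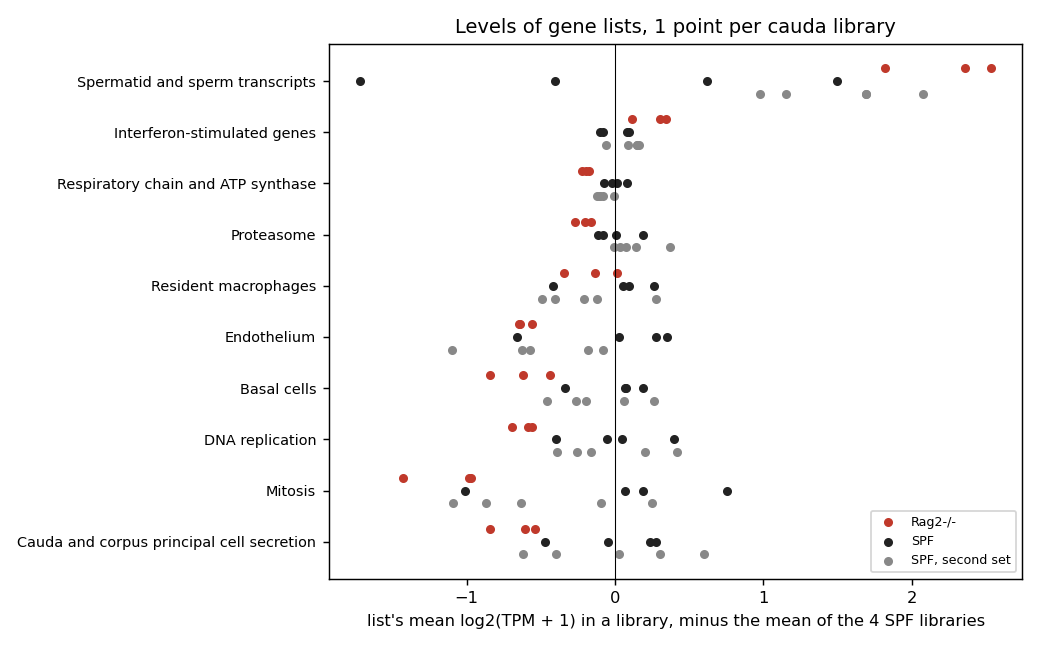
Mean log2(TPM + 1) of the tested members of 10 gene lists in each cauda library, less the mean of the 4 SPF libraries (horizontal axis); each point is 1 library, with Rag2-/- in red, SPF in black and the second SPF set in grey. Sperm transcripts lie to the right in Rag2-/- cauda and DNA replication, mitosis and basal cell genes to the left, where 1 SPF library, replicate 2, lies nearest to them for each of these lists.

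Genes of dividing cells had negative changes. All 30 tested genes of DNA replication had a negative change, with a median of -0.64, and 10 lay lower without overlap, against 9.46% of all genes tested. Their mean was 2.82, 2.69 and 2.80 log2(TPM + 1) in Rag2-/- cauda, against 3.78, 2.98, 3.43 and 3.33 in SPF cauda and 2.99 to 3.80 in the second set. Pcna, the sliding clamp of DNA polymerase, was at 27.0, 22.8 and 31.9 TPM in Rag2-/- cauda and 64.1, 36.0, 42.2 and 21.1 TPM in SPF cauda, and Rfc2, of the complex that loads the clamp, at 31.3 to 34.8 TPM in Rag2-/- cauda and 37.6 to 61.0 TPM in SPF cauda. Neither was called against the first set. Against the second set Pcna was called lower (change -0.87, limma adjusted p = 0.0372) and Rfc2 was not called. There 0 of 31 DNA replication genes were positive, with a median of -0.56, and 4 were called lower, beside 9.45% of all genes. Against the first set, 15 of 16 genes of mitosis had a negative change, with a median of -1.14. However, the list's mean level of 1.00 to 1.46 log2(TPM + 1) in Rag2-/- cauda overlapped with other libraries. These were the second SPF set, at 1.34 to 2.68, and SPF replicate 2, at 1.42. Without that library the medians were -0.73 for DNA replication and -1.45 for mitosis. Sperm transcripts were at their highest among SPF cauda in that same replicate 2, and their part in these values was not tested.

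Basal cell genes were negative in 10 of 11 with a median of -0.70, and 5 lay lower without overlap, beside 9.46% of all genes tested. Krt14, a keratin of basal cells, was at 69.4, 56.8 and 68.4 TPM in Rag2-/- cauda and 128, 79.6, 112 and 144 TPM in SPF cauda, and Krt15 at 49.1, 63.8 and 54.0 TPM in Rag2-/- cauda and 67.2 to 183 TPM in SPF cauda. Against the second set, whose Krt14 began at 65.7 TPM, the list's median was -0.36. Among 32 genes of the respiratory chain and ATP synthase 29 were negative, by a median of -0.19. Of the 32, 12 lay lower without overlap, beside the same 9.46%. Against the second set 13 of the 32 were positive and the median was -0.10. Cox6c was at 1610.1, 1879 and 1922 TPM in Rag2-/- cauda and 2139.8 to 2205 TPM in SPF cauda, and Cox4i1 at 3379.9 to 3774 TPM in Rag2-/- cauda and 3228 to 4225 TPM in SPF cauda. In these 4 lists limma called 0 genes against the first set. An unadjusted p under 0.05 was reached there by 15 of DNA replication, 10 of mitosis, 5 of basal cells and 2 of the respiratory chain.

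Immune genes other than those of lymphocytes had medians of either sign by list. Of 21 interferon-stimulated genes 18 were positive, with a median of 0.28. Of the 21, 2 lay higher without overlap, beside 3.75% of all genes tested. The 2 most abundant differed little between the genotypes. Bst2, which tethers budding viruses, was at 98.7, 115 and 104 TPM in Rag2-/- cauda and 95.4 to 116 TPM in SPF cauda (change 0.03 ± 0.15), and Irf9 at 32.7, 39.2 and 41.1 TPM in Rag2-/- cauda and 36.0 to 46.8 TPM in SPF cauda (change -0.19 ± 0.17). Of 14 genes of resident macrophages 9 were negative, with a median of -0.16. The complement genes C1qa and C1qc, made mainly by macrophages, were at 57.4 to 81.4 TPM and 54.2 to 58.9 TPM in Rag2-/- cauda and 57.4 to 119 TPM and 43.2 to 95.4 TPM in SPF cauda. Of 4 tested neutrophil genes 3 were negative, with a median of -1.62, and 2 lay lower without overlap, beside 9.46% of all genes tested. S100a8, a calcium-binding protein abundant in neutrophils, was at 70.9, 50.1 and 39.1 TPM in Rag2-/- cauda, against 394, 126, 341 and 1375 TPM in SPF cauda (change -2.89 ± 0.69, limma adjusted p = 0.254). SPF replicate 4 was far the highest of these, and 1 library of the second set, at 48.0 TPM, lay within the Rag2-/- range. Its partner S100a9 was at 2.14, 0 and 0.41 TPM in Rag2-/- cauda and 3.19 to 34.8 TPM in SPF cauda. Ltf, the iron-binding lactoferrin, lay the other way, at 1550, 1563 and 1467 TPM in Rag2-/- cauda and 831 to 1293 TPM in SPF cauda. Epithelial genes of mucosal immunity were negative in 6 of 7, with a median of -0.78, and complement genes in 14 of 19, with a median of -0.36. Against the second SPF set the medians were 0.25 for interferon-stimulated genes, 0.08 for resident macrophages and -0.70 for neutrophils. There they were -0.39 for mucosal immunity and -0.06 for complement. Genes of MHC class II presentation had a median of 0.02 over 8 genes, but against the second SPF set a median of 0.92 over 7. Of those 7, 4 were called higher, beside 1.04% of all genes in that comparison. Limma called 0 members of these lists against the first set, with an unadjusted p under 0.05 for 4 interferon-stimulated genes, 1 macrophage gene, 3 neutrophil genes, 3 of mucosal immunity, 2 of complement and 0 of MHC class II.

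Secretory genes of principal cells had changes of both signs against the first SPF set. Of 21 tested genes of cauda and corpus secretion 11 were positive and 10 negative, with a median of 0.00, and 3 were called, all lower: Defb22, Defb39 and Wfdc13. Of the 21, 7 lay lower and 2 higher without overlap, beside 9.46% and 3.75% of all genes tested. Against the second SPF set 4 of 21 were positive, with a median of -0.72. Of all 12558 genes in that comparison 4481 were positive, with a median of -0.16. Among the 21, 2 were called higher and 3 lower there, beside 1.04% and 9.45% of all genes. Genes of caput secretion were negative in 9 of 14, with a median of -0.76. The cauda and corpus median ranged from -0.25 without SPF replicate 4 to 0.18 without SPF replicate 1. The mean level of the list was 6.91 to 7.21 log2(TPM + 1) in Rag2-/- cauda, against 7.28 to 8.03 in SPF cauda and 7.13 to 8.36 in the second set, so its mean lay lower in Rag2-/- cauda while its median did not. Gpx3, a secreted glutathione peroxidase, was at 26638, 29752 and 26860.1 TPM in Rag2-/- cauda and 19573 to 24104 TPM in SPF cauda, without overlap and without a call. Against the second set it was called higher (change 0.69, limma adjusted p = 0.0191). Wfdc10 was at 18191 to 21502 TPM in Rag2-/- cauda and 14232 to 19793 TPM in SPF cauda. In the glycerophospholipid list 1 of 39 genes was called, Phospho1, and the median was -0.11.

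Genes near Rag2 were examined because a knockout can carry the chromosome around its target from another strain. Of 19 genes in the table that start within 2 Mb, 13 were tested, and 12 of these were not called: Traf6, Commd9, Ldlrad3, Trim44, Fjx1, Pamr1, Cd44, Pdhx, Apip, Ehf, Elf5 and Cat. Their changes lay between -0.91 for Elf5 and 0.20 for Ldlrad3. Traf6, a signalling adaptor that starts 0.05 Mb from Rag2, was at 4.16, 3.56 and 3.43 TPM in Rag2-/- cauda and 4.52, 4.28, 3.48 and 2.84 TPM in SPF cauda. Fjx1 was the other gene of the 13 without overlap, at 6.64, 2.80 and 7 TPM in Rag2-/- cauda and 7.91 to 11.9 TPM in SPF cauda (limma adjusted p = 0.374). Abtb2, Prr5l, Slc1a2 and A930006I01Rik were below the level tested. Within 10 Mb, 6 of 64 genes did not overlap, all lower, which is 9.38% beside 13.2% of all genes tested. Defb22, Defb23 and Wfdc13 are on chromosome 2 as well, but more than 10 Mb away.

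**Figure D4:**
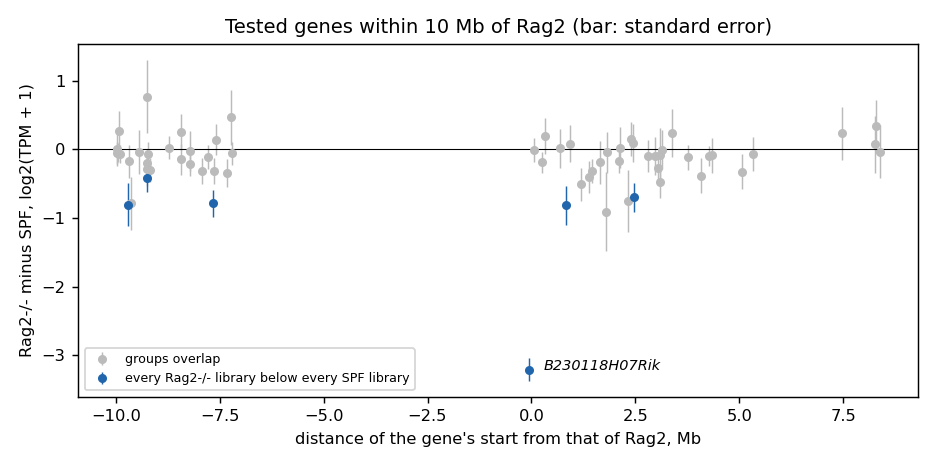
Change of the 64 tested genes that start within 10 Mb of Rag2 (vertical axis, Rag2-/- minus SPF cauda on the log2(TPM + 1) scale, bars are standard errors) by the distance of their starts (horizontal axis, Mb). Blue points are the 6 genes whose groups do not overlap; B230118H07Rik at -3.21 stands apart from all the others.

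The caput libraries are not those of the cauda comparison, though the labels do not say whether they came from the same animals. Of the 16 genes called in cauda, 11 reached the level tested in caput, all 11 had a change of the same sign and 3 were called there too: Erdr1, B230118H07Rik and Dynlt1b. The gene 1700112E06Rik fell short of that level and was not tested. It was at 2.44 and 1.89 TPM in Rag2-/- caput and 0.13 to 0.41 TPM in SPF caput, without overlap. Defb22, Defb23 and Car4 were also below that level, and their groups overlapped in caput. The changes of Hgfac, Phospho1, 2300002M23Rik, Defb39, BC048679 and Npy in caput were smaller than their standard errors. That of Hgfac was 0.01 ± 0.11. In all, 6 of 11915 genes were called higher (0.0504%) and 13 lower (0.109%) in Rag2-/- caput. Erdr1 was at 55.7 and 52.8 TPM in Rag2-/- caput, against 0.13 TPM in SPF replicate 2 and listed at 0 in the other 3 (limma adjusted p = 2.6e-07). Dynlt1b was at 89.8 and 84.4 TPM in Rag2-/- caput and 173, 202, 207 and 176 TPM in SPF caput (limma adjusted p = 0.0222). Entpd4, just short of a call in cauda, was at 377 and 438 TPM in Rag2-/- caput and 100.3 to 105 TPM in SPF caput (limma adjusted p = 0.000548).

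**Figure D5:**
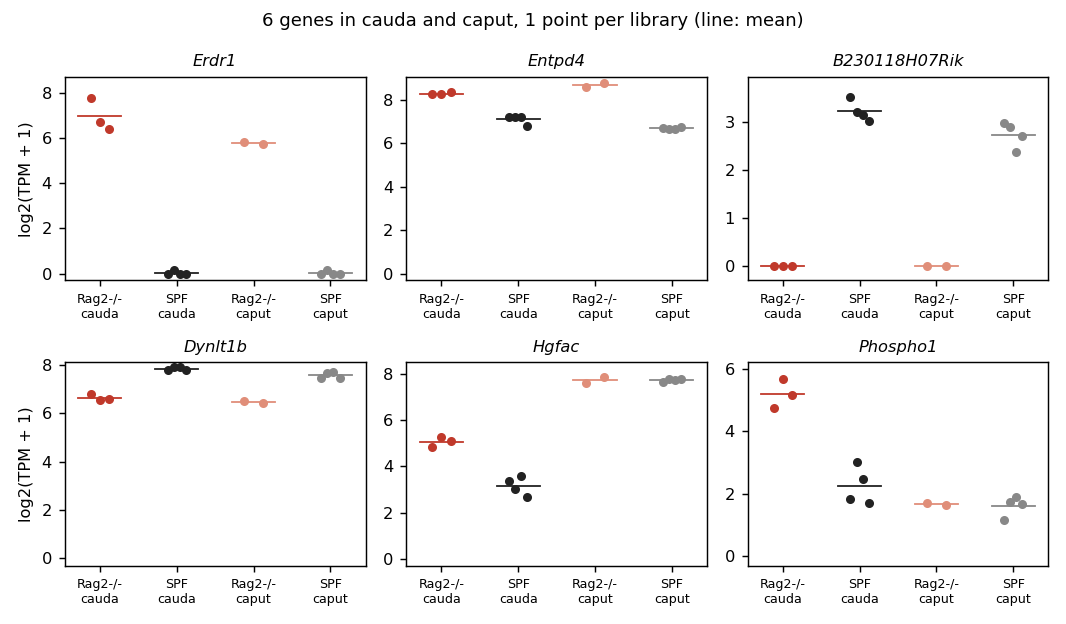
Levels of 6 genes in Rag2-/- and SPF cauda and in Rag2-/- and SPF caput, as log2(TPM + 1) on the vertical axis of each panel; each point is 1 library and each line a group mean. Erdr1, Entpd4, B230118H07Rik and Dynlt1b do not overlap between the genotypes in either region, whereas Hgfac and Phospho1 overlap in caput.

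The difference between the regions was itself tested, and 15 genes were called (0.120% of 12469), all libraries being taken as separate animals. Among them were Hgfac, Phospho1 and 2300002M23Rik of the 16. The last, at 0.63 to 2.49 TPM in caput, had no room there for a fall as large as in cauda. Its call therefore restates the change in cauda and shows no difference between the regions. Defb22, Defb23 and Car4 were called as well, but they were below 1.5 TPM in all 6 caput libraries and entered through cauda alone, so for them the test restates the change in cauda. Hgfac was abundant in caput irrespective of genotype, at 197 and 234 TPM in Rag2-/- and 199 to 222 TPM in SPF caput, and its change in cauda exceeded that in caput by 1.90 ± 0.29 (limma adjusted p = 0.0474). Phospho1 was at 2.29 and 2.12 TPM in Rag2-/- caput and 1.22 to 2.76 TPM in SPF caput, and its change in cauda was larger by 2.87 ± 0.47 (limma adjusted p = 0.0474). These calls were sensitive to single libraries: without Rag2-/- caput replicate 2 there were 0, with 547 genes at an unadjusted p under 0.05 by limma, and without SPF cauda replicate 2 there were 115.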

How the data were processed

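Tissue RNA of 1 animal per library was made into stranded polyadenylated RNA libraries and sequenced in pairs. The authors computed the deposited TPM values with RSEM on mm10 (tool versions not given in the sources used here); replicates were not pooled. The study made its own calls from raw counts, which were not used here. TPM keep no depth, so the depth behind each value is unknown and no counting interval is given.

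Limma 3.58.1 (R 4.3.3) was run on log2(TPM + 1) for the genes averaging 1 TPM or more in the 7 libraries, with Benjamini-Hochberg adjustment over all of them. The thresholds for a call were 0.05 for the adjusted p and 1.5 for the fold. The test of the difference between cauda and caput was an interaction term over the 7 cauda and 6 caput libraries. Named genes were the called ones, then those without overlap and of fold at least 1.5 with the smallest p until 10 were reached in each direction, the most abundant members of lists and the genes beside Rag2. The members and lists were chosen with earlier results of these data known. GF cauda replicate 4, a swollen organ, was left out as in the study. Of 23845 genes 23727 matched RefSeq by symbol or synonym, which gave positions and promoters. Columns of different libraries were never identical. The script was tested on simulated data.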

Additional observations from a re-analysis of the deposited data

Results flagged for a closer look

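Of 28 groups of 4 libraries examined gene by gene, 2 were flagged for a library apart from the other 3, where chance gives about 1 in 20. In SPF cauda, Entpd4 was at 109 TPM in replicate 4 and at 146 to 148 TPM in the others. Erdr1 was at 0.12 TPM in SPF replicate 2 and listed at 0 in the others, where any value above 0 would be flagged.

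For Hgfac and Phospho1 the change in cauda differed from that in caput in the interaction test. The change in cauda minus that in caput was 1.90 for Hgfac and 2.87 for Phospho1 (limma adjusted p = 0.0474 for each). For 2300002M23Rik it was -4.85 (limma adjusted p = 0.0474). At 0.63 to 2.49 TPM in caput that gene had no room for such a fall, so its value restates the change in cauda. Defb23 (-5.34), Defb22 (-5.62) and Car4 (-3.34) passed the same test but did not reach the tested level in caput, so these values restate the change in cauda and show no difference between the regions.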

How the results depend on the processing

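The number of calls depended on nearly every choice, while none of the 16 called genes turned direction in any alternative. In place of 16 calls, 6 higher and 10 lower, limma gave 2 (1 and 1) with a pseudocount of 0.1, 8 (4 lower) without a filter, 28 (13 higher) at a mean of at least 5 TPM, 29 (16 higher) after rescaling by the median of ratios, 401 (134 and 267) with array weights, 38 (16 and 22) with a trended robust prior, 86 (64 and 22) with all groups of the first cauda set in 1 fit, 3 (1 and 2) with the spermatid level as covariate, and 1317 (130 and 1187) against the second SPF set. Against both SPF sets, an alternative added after seeing the data, 13 were higher. Without 1 library, calls ran from 2 to 111, with 1 to 40 higher and 1 to 71 lower. The 15 calls of the difference between regions became 0 with a pseudocount of 0.1 (1105 genes at an unadjusted p under 0.05 by limma), and 0 to 115 without 1 library. The causes were not tested.

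The labels number the replicates of both genotypes, but nothing says that a number marks a shared animal or day. Deviations of same-numbered libraries correlated at 0.165, 0.0487 and -0.0632, so the numbers were not taken as pairs. With the replicate block there were 28 calls (17 higher), 9 of the 16 were kept, and the difference between regions gave 1 call.

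Genes that were not called and turned sign, with their log2 change, were Cat (0.013) and Traf6 (0.038) after rescaling, Ldlrad3 (-0.0015), Pamr1 (-0.12) and Trim44 (-0.12) with array weights, Ldlrad3 (-0.41), Trim44 (-0.45), Prm2 (-1.02), C1qa (0.27) and C1qc (0.36) with the covariate, Ldlrad3 (-0.040) and Trim44 (-0.23) with the block, Commd9 (0.20), Ldlrad3 (-0.19), Trim44 (-0.56), Irf9 (0.074), C1qa (0.45), C1qc (0.32) and Cox4i1 (0.29) against the second SPF set, and Commd9 (0.029), Ldlrad3 (-0.015), Trim44 (-0.31), C1qa (0.093), C1qc (0.022) and Cox4i1 (0.13) against both sets. Without 1 library the range was -0.11 to 0.23 for Pamr1, -0.23 to 0.17 for Trim44, -0.26 to 0.20 for Cat, -0.11 to 0.066 for Traf6, -0.027 to 0.087 for Bst2 and -0.040 to 0.30 for Ldlrad3.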
